A study of Pyrus communis with 6 samples.

Results

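A group of array probes whose identifiers begin with DITNO was measured in the flower receptacle of European pear (Pyrus communis). Members were the non-control DITNO probes for which at least a share of 0.5 of the spots was well above background on 3 or more of the 6 arrays. This rule kept 210 of the 1166 DITNO probes, out of 16339 probes kept and 21681 non-control probes in all. The rule used detection on any 3 arrays, whatever the cultivar. A probe seen on the 3 arrays of 1 cultivar alone therefore entered through the cultivar in which it was bright, which was the case for DITNO2_A07 and DITNO5_H12R2007a.

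The arrays compared the cultivar 'La France' with 'Giant Laf', a bud mutant that arose from it. Orchard-grown trees of both cultivars were sampled in 2010, 1 week before full bloom, and laser microdissection separated the receptacle from the rest of the flower bud. There were 3 arrays per cultivar, described in the series design as biological replicates. The number of trees behind them, and the mutated locus, are not given in the sources used here.

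A bud mutant, or bud sport, arises when a cell of a growing shoot mutates, and cuttings of that shoot are multiplied as a clone, which shares nearly all of its genome with the parent cultivar. In pear and apple the receptacle surrounds the ovary and grows into most of the flesh of the fruit. A microarray probe is a short oligonucleotide, and the brightness of its spots reflects both the amount of matching RNA and how well that probe binds. Levels of different probes are therefore given as signals and not as amounts of transcript.

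The sources used here do not say what DITNO stands for, and the files pair no identifier with a gene. None of the DITNO identifiers, 0 of 1166, matched a reference table of 42167 pear genes. No gene is named here for that reason, and the labelled tissue could not be checked against marker genes. Each identifier consists of the prefix, a number from 1 to 11, a letter with a further number, and in some cases the ending R2007a or S2007a. A stem is the identifier without that ending, and 477 of the 689 DITNO stems were carried by a pair of probes, one plain and one with an ending.

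Signals below are log2 processed signals relative to the 75th percentile of all non-control probes on the same array, so that a value of 0 lies at that percentile. The 75th percentile itself was 1639, 1202 and 1021 intensity units on Giant Laf replicates 1, 2 and 3, and 799, 1336 and 927 on La France replicates 1, 2 and 3. No spot was saturated by the scanner's flag on any array. The first slide carried the 3 Giant Laf arrays and La France replicate 1, and the second slide carried La France replicates 2 and 3. The RNA came from dissected receptacle tissue and not from single cells, so fewer cells of a type and less RNA per cell cannot be told apart.

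Most DITNO probes gave no signal above background. Detection reached 18.0% of DITNO probes (210 of 1166), against 78.6% of all other probes (16129 of 20515). On all 6 arrays, 185 DITNO probes (15.9%) were well above background, compared with 74.4% of the others. On no array at all were 808 DITNO probes (69.3%), compared with 16.1% of the others. Between these lay 173 DITNO probes (14.8%, against 9.58% of the others), with 124 well above background on 1 array, 24 on 2 arrays, 8 on 3, 4 on 4 and 13 on 5. The 124 seen on a single array were 10.6% of the DITNO probes, where the others had 3.78%. The DITNO probes thus held a large silent portion, and 2 smaller portions of like size seen on every array or on some.

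The share of DITNO probes detected per array differed little between the cultivars. The share of DITNO probes well above background was 19.8%, 19.4% and 20.7% on Giant Laf replicates 1 to 3, and 19.5%, 20.4% and 19.2% on La France replicates 1 to 3. The means were 19.95% ± 0.66 (SD, n = 3) in Giant Laf and 19.70% ± 0.63 (SD, n = 3) in La France, a difference smaller than the spread between replicates. The other probes gave 78.9% ± 1.53 and 77.8% ± 1.31. With the background flag replaced by a place among the 16269 brightest probes of an array, 211 DITNO probes (18.1%) passed on 3 or more arrays. Members just inside the rule, the 8 seen on 3 arrays, had mean signals from -7.52 to -6.36 with a median of -6.69. The 24 probes just outside, seen on 2 arrays, had mean signals from -8.47 to -6.60 with a median of -7.39.

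Other probe classes of the array were detected far more often. Detection was 86.6% for identifiers in which DIT is followed directly by a number, 79.7% for the prefix DITK and 58.5% for the prefix DITSSH. It was 83.7%, 73.0% and 77.7% for the prefixes NFR, NFW and NLE. Identifiers of the form of sequence accessions, with the few that remain, had 46.3%. The DITNO prefix was the lowest of these 8 classes.

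Within the DITNO probes, detection varied with the form of the identifier. It was 22.6% without an ending (145 of 643), 12% with R2007a (51 of 425) and 14.3% with S2007a (14 of 98). A plain probe was detected in 15.5% of cases (74 of 477) where its stem had a partner probe, and in 42.8% of cases (71 of 166) where it had none. The other probes ran the opposite way, with 80.5% for plain probes with a partner and 69.5% without. Across the 11 identifier numbers, detection ranged from 12% for number 8 to 29.4% for number 3, so every number held both silent and detected probes.

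The detected DITNO probes covered almost the whole range of the array and gathered at its ends. Their median signal was -2.20 (quartiles -5.25 and 0.92), against -1.19 (quartiles -3.27 and 0.68) for the other detected probes. The SD between probes was 4.29 for DITNO and 2.84 for the others. When all detected probes were split into 5 classes of equal size by signal, 36.7% of the DITNO probes fell in the dimmest class and 24.3% in the brightest, with 17.1%, 9.05% and 12.9% in between. The undetected DITNO probes had a median of -8.49.

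The bright end held more DITNO probes than their number on the array. They were 1.29% of all detected probes but 16 of the 100 brightest, 6 of the 50 brightest and 2 of the 20 brightest. Of the detected DITNO probes, 24 (11.4%) were among the brightest 2% of detected probes, compared with 303 (1.88%) of the others. Of these 24, 23 had no ending and 17 had no partner probe, where all 210 members had 145 and 72. The brightest member, DITNO10_B07, read 7.80, 8.17 and 8.39 on Giant Laf replicates 1 to 3, and 8.66, 8.32 and 8.59 on La France replicates 1 to 3. The next, DITNO9_D12, read 7.71, 8.13 and 8.35, and 8.62, 8.13 and 8.42, in the same order. In these scaled signals of both probes Giant Laf replicate 1 was lowest, La France replicate 1 was highest, and the cultivars overlapped. This order did not hold before the signals were scaled. Unscaled, La France replicate 1 was the lowest array for DITNO10_B07 and DITNO9_D12, at 323742 and 314695 intensity units. La France replicate 2 was then the highest, at 425778 and 374669, and Giant Laf replicate 1 read 364145 and 344120.

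Those 24 bright members were nearly level across the arrays before the signals were scaled. Their unscaled median was 186442, 183407 and 179439 intensity units on Giant Laf replicates 1 to 3, and 162933, 217271 and 168847 on La France replicates 1 to 3. Unscaled, the other detected probes outside the brightest 2% had medians of 704, 525 and 432, and of 332, 546 and 378. The median SD over the 6 arrays of the 24 members was 0.14 on the unscaled log2 scale and 0.31 after scaling. That of the other detected probes outside the brightest 2% was 0.43 unscaled and 0.21 scaled, so scaling widened the spread of the bright members and narrowed that of most probes. In the 303 other probes of the brightest 2%, the median SD was 0.31 unscaled and 0.32 scaled, so those were not as level before scaling. Without scaling the median difference of the 24 members, Giant Laf minus La France, was 0.012, and with it -0.33, with 11 and 23 of the 24 below 0. The 303 other probes in the brightest 2% had 0.14 without scaling and -0.20 with it. Scaling moved the median difference of the other probes outside the brightest 2% from 0.37 to 0.028. The part of scanner response or of hybridisation in these values was not tested.

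A probe at the middle of the group looked different. DITNO5_F11, the member nearest the median signal, read -2.29, -2.36 and -2.16 on Giant Laf replicates 1 to 3, and -2.10, -2.30 and -1.97 on La France replicates 1 to 3. Its values overlapped between cultivars, and its log2 difference was -0.15 ± 0.13 (SE).

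The probes that share a stem answered alike where both were detected, and both were silent in most cases. Of the 477 pairs, 60 had both probes detected, 14 only the plain probe, 4 only the probe with an ending, and 399 (83.6%) neither. For the other probe pairs of the array, 9090 in all, neither was detected in 14.5%. Among pairs with at least 1 detected probe, a single one was seen in 23.1% of DITNO pairs and 13.3% of the others. By ending, this share was 16.1% (9 of 56) for R2007a and 40.9% (9 of 22) for S2007a, against 13.1% and 16.2% for the others.

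In the 60 pairs with both probes detected, the median absolute gap in mean signal was 0.13 log2 units, compared with 0.60 in the 6735 such pairs of the other probes. The gap exceeded 1 log2 unit in 7 DITNO pairs (11.7%) and in 40.6% of the other pairs. The log2 differences between cultivars had the same sign in 56 of 60 pairs (93.3%), against 78.1% of the other pairs. Across the 60 pairs these differences had a Pearson r of 0.84 and a Spearman rho of 0.86, against 0.73 and 0.68 in the others. The profiles of both probes over the 6 arrays had a median r of 0.94, against 0.88. Both probes of a pair shared the same 6 libraries and arrays, so agreement of this kind leaves out the error that arises before hybridisation.

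The closest pair was DITNO4_D03 and DITNO4_D03S2007a, chosen for the narrowest gap between their log2 differences. The plain probe read 2.0, 1.99 and 2.15 in Giant Laf and 2.06, 1.95 and 2.20 in La France, in replicate order. Its partner read 2.04, 1.97 and 2.15, and 2.12, 1.93 and 2.19. The cultivars overlapped in both probes and the log2 differences were -0.024 ± 0.11 and -0.025 ± 0.11 (SE), with signs that flipped under quantile and cyclic loess normalization.

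The pair of widest gap, DITNO10_B09 and DITNO10_B09R2007a, diverged on single arrays. The plain probe read -6.96, -6.67 and -5.95 in Giant Laf, and -5.88, -6.32 and -2.88 in La France, in replicate order. The probe with the ending read -7.49, -6.50 and -4.73, and -6.28, -5.46 and -5.23. The plain probe stood far higher on La France replicate 3 than on the other arrays, and its partner did not. Their log2 differences were -1.50 ± 0.90 and -0.59 ± 0.70 (SE), and neither passed the adjusted threshold (limma, adjusted p = 0.44 and 0.69). Without La France replicate 3 the first became -0.43, and without Giant Laf replicate 1 the second became 0.037.

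Of the 18 pairs with 1 detected probe, 6 had a gap of more than 10 log2 units between a bright and a silent probe. They are named here after their values were seen. The bright probe was the plain one for DITNO10_C08, DITNO7_H08, DITNO8_C03, DITNO8_D05 and DITNO9_G08, at mean signals of 7.61, 7.22, 3.79, 7.65 and 7.99. It was the one with the S2007a ending for DITNO9_D03, at 4.26. Every silent partner was well above background on 0 arrays, with means between -8.78 and -8.35. This was 33.3% of the 18 pairs, and among the other probe pairs with 1 detected probe it was 7.14% (74 of 1036).

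In the scaled signals, the members varied more from array to array than the other probes did. The median SD of a probe over the 6 arrays was 0.35 for DITNO and 0.22 for the others. This did not hold among the brightest 2%, where it was 0.31 and 0.32. Unscaled, it was 0.14 against 0.31 in the brightest 2%, and 0.42 for the 186 members outside it, against 0.43. Spots of one DITNO probe within an array differed more than those of the other probes, with SDs of 0.10 to 0.12 against 0.069 to 0.089.

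Much of this variation was shared by the members and belonged to single arrays. The median deviation of a DITNO probe from its own mean was -0.12, -0.090 and 0.054 on Giant Laf replicates 1 to 3, and 0.35, -0.14 and 0.13 on La France replicates 1 to 3. For the other detected probes these medians lay between -0.040 and 0.029. The 2 groups of 3 arrays overlapped, since La France replicate 2 was the lowest of all 6. La France replicate 1, the array of lowest overall brightness, had the highest median, followed by La France replicate 3, Giant Laf replicate 3 and Giant Laf replicate 2, in order of rising brightness. The remaining arrays, La France replicate 2 and Giant Laf replicate 1, were the brightest and had the lowest medians. The part of array brightness in this order was not tested.

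La France replicate 1 carried the highest value of 108 members (51.4%), where the same held for 18.1% of all detected probes. Its margin over the next array was small, with a median of 0.17 log2 units over those 108. The median deviation on this array was 0.36 with median centring and 0.33 with normexp background correction. It was 0.26 with quantile normalization and 0.24 with cyclic loess, so it stayed above 0 in each of these settings, which all scale the arrays. Unscaled, it was below 0, at -0.13 in the 24 brightest members and -0.15 in the remaining 186. The other detected probes then had -0.34 in the brightest 2% and -0.50 outside it. The lowest value fell on La France replicate 2 for 72 members (34.3%, against 21.5% of the other detected probes). It fell on Giant Laf replicate 1 for 66 (31.4%, against 17.7%). On Giant Laf replicate 2 it fell for 43 (20.5%), near the 18.2% of the others.

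A set of DITNO probes dropped together on La France replicate 2. In 27 members (12.9%) the value on that array was at least 2-fold below that on every other array, compared with 0.300% of all detected probes and 22 (0.136%) of the non-DITNO ones. The same count for the DITNO probes was 2 (0.952%), 1 (0.476%) and 0 on Giant Laf replicates 1 to 3. On La France replicates 1 and 3 it was 0 and 1 (0.476%). The non-DITNO probes had 0.217%, 0.279% and 0.490% on Giant Laf replicates 1 to 3, and 0.136% and 0.118% on La France replicates 1 and 3. The drop below the next lowest array had a median of -1.56 log2 units and ranged from -2.19 to -1.04. Of the 27, 26 remained well above background on La France replicate 2.

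Their median signals were -2.29, -1.82 and -2.64 on Giant Laf replicates 1 to 3, and -1.76, -4.21 and -2.47 on La France replicates 1 to 3. The set was high on Giant Laf replicate 2 and La France replicate 1 as well as low on La France replicate 2, so the cultivars overlapped. For example, DITNO1_G02 read -2.84, -2.29 and -3.39 in Giant Laf, and -2.59, -5.15 and -3.02 in La France. A bright example, DITNO9_D03S2007a, read 4.37, 4.66 and 4.05 in Giant Laf, and 5.0, 3.02 and 4.46 in La France. Both examples, chosen after their values were seen, were lowest on La France replicate 2 and otherwise overlapped between cultivars.

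The 27 probes came from 10 of the 11 identifier numbers and had mean signals from -6.75 to 4.26. Of them 25 had no ending and 22 had no partner probe, where all 210 members had 145 and 72. Their profiles over the 6 arrays had a mean pairwise r of 0.97, and the lowest r of a member to the mean profile was 0.92, a value that the shared drop largely sets. Of the 22 non-DITNO probes that met the same condition, 9 had an r above 0.9 to the DITNO mean profile. The median deviation on La France replicate 2 was -1.59, and it was -1.51 with quantile normalization, -1.56 with cyclic loess and -1.18 with normexp. The cultivar difference of this set rested on that array: its median was 0.51 (range 0.16 to 0.95) with all arrays and -0.16 without La France replicate 2. By limma, 0 of the 27 had an unadjusted p below 0.05 with all arrays, against 16.0% of all detected probes. Without La France replicate 2 it was again 0, against 9.33%. The set was chosen for low values on that array, which widens the spread within La France, so nothing is read from the count with all arrays. Whether the drop came from the tissue, the RNA or the hybridisation was not tested.

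Over all members the profiles rose and fell together more than those of other probes. The mean Pearson r over all pairs of detected DITNO probes, across 6 arrays, was 0.21, against 0.0071 for the other detected probes. It was 0.23 after the probes of a stem were averaged, and 0.23 against 0.0041 after the cultivar means were removed, so the co-variation lay within cultivars. By signal class from dim to bright, it was 0.31, 0.34, 0.24, 0.046 and 0.24, against 0.028, 0.045, 0.018, 0.014 and 0.11. These values share the same 6 libraries and arrays. Leaving out La France replicate 1 lowered the mean r to 0.13, leaving out La France replicate 2 gave 0.20, and the 183 members outside the set of 27 gave 0.21. It was 0.13 with quantile normalization and 0.36 with normexp.

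Average-linkage grouping of the profiles at an r of 0.9, a threshold chosen after the data were seen, gave 9 groups of at least 5 members, which held 103 of the 210 probes (49.0%). The remainder fell into smaller groups, with 29 probes alone. The first group had 29 members, all lowest on La France replicate 2, and included 26 of the set of 27. The second group had 18 members, of which 15 belonged to the 24 brightest. All 18 were lowest on Giant Laf replicate 1 and 16 of them highest on La France replicate 1. This order was that of the scaled signals. For the 24 brightest, the median deviations on those arrays were -0.51 and 0.36 scaled, but 0.036 and -0.13 unscaled. The third group had 13 members of signals between -7.00 and -2.11. It was lowest on Giant Laf replicate 1 in every member and highest on La France replicate 1 in 12. The fourth group of 12 members from 7 stems had 11 members lowest on Giant Laf replicate 2. Its median deviations were 0.56, 0.42 and -0.24 on La France replicates 1 to 3, and -0.12, -0.49 and -0.11 on Giant Laf replicates 1 to 3. The seventh group, 5 members from 3 stems, had the widest median difference of the 9, at -1.09 (Giant Laf minus La France), and 3 of its members had an unadjusted p below 0.05 in limma, where 16.0% of all detected probes did. The groups were formed on these same values, so nothing is read from that count.

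The comparison of Giant Laf with La France asks which transcripts differ between the bud mutant and its parent. In limma, with adjustment over all 16339 detected probes, 0 of the 210 members passed an adjusted p of 0.05, as did 0% of all detected probes. The smallest adjusted p of a member was 0.26. At an unadjusted p below 0.05 there were 23 members (11.0%), below the 16.0% of all detected probes. Of these, 5 were higher in Giant Laf (2.38%, against 10.6% of all) and 18 were lower (8.57%, against 5.36%). This order turned with the setting. The share was 19.5% against 16.5% of all with median centring and 14.3% against 9.33% without La France replicate 2. It was 20% against 19.1% without Giant Laf replicate 3 and 15.2% against 9.62% with the slide as a block. The slide-block fit compares the cultivars through La France replicate 1 alone, as the second slide holds only La France arrays. Median centring gave 4 higher and 37 lower, and normexp gave 1 and 11. With the probes of a stem averaged, 16 of 150 stems (11%) had such a p, against 14.6% of all 9544.

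Other counts differed in how they stood against all detected probes. The 3 values of one cultivar did not overlap the 3 of the other in 26 members (12.4%), against 22.3% of all detected probes. Among these, 9 were higher in Giant Laf (4.29%, against 13.9%) and 17 lower (8.10%, against 8.40%). A mean difference of at least 2-fold was seen in 10 members (4.76%), against 2.32% of all, with 4 higher (1.90%, against 1.51%) and 6 lower (2.86%, against 0.808%). The log2 difference was below 0 in 134 members (63.8%), against 46.2% of all.

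The median log2 difference of the members was -0.17 (quartiles -0.38 and 0.13, range -1.86 to 1.39), with a median SE of 0.22. The other detected probes had a median of 0.025 with a median SE of 0.15. The gap between these medians was -0.19. Array by array, the DITNO median deviation minus that of the others was -0.12, -0.10 and 0.025 on Giant Laf replicates 1 to 3, and 0.36, -0.096 and 0.13 on La France replicates 1 to 3. The means were -0.065 ± 0.078 and 0.13 ± 0.23 (SD, n = 3 each), and the arrays of the cultivars overlapped. With quantile normalization the gap was -0.088, and with cyclic loess it was -0.14. Without La France replicate 1 the gap was -0.081, without La France replicate 2 it was -0.29, and within slide 1, which holds La France replicate 1 alone for its cultivar, it was -0.48.

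The gap was not even over the members. By signal class from dim to bright, the median difference was -0.26, -0.0075, 0.17, -0.024 and -0.31, against 0.074, 0.095, 0.054, -0.0020 and -0.045 for the other probes. The 138 members whose stem has a partner probe had a median of -0.26, and the 72 without one had -0.015. Leaving out the 27 members low on La France replicate 2 moved the median of the members to -0.26 (n = 183).

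The members of smallest p in each direction are described with the same test, and none of them passed the adjusted threshold. DITNO2_A07 read -6.85, -7.09 and -6.54 on Giant Laf replicates 1 to 3, and -8.02, -8.83 and -7.80 on La France replicates 1 to 3. All Giant Laf values lay above all La France values, and the background flag was passed by 3 Giant Laf arrays and by 0 La France arrays. Set against a La France mean raised to a bound of -7.96, its Giant Laf mean was 2.20-fold brighter, a value that leaves out the error between replicates. The measured means were -6.82 in Giant Laf and -8.22 in La France. The 95% interval of the log2 difference ran from 0.68 to 2.10 (limma, adjusted p = 0.26). DITNO2_A07 passed the detection rule through the Giant Laf arrays alone, so its difference is a description and supports nothing. With normexp background correction its log2 difference was 0.11 in place of 1.39. Its partner with the R2007a ending was not detected on any array.

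DITNO5_A01R2007a read -4.89, -4.25 and -5.15 in Giant Laf, and -5.79, -5.65 and -6.61 in La France. Its Giant Laf values all exceeded its La France values, with a log2 difference of 1.25 ± 0.33 (SE; limma, adjusted p = 0.26). With normexp this difference was 0.23. The plain probe of that stem, DITNO5_A01, gave 1.25 ± 0.36 (SE), also without overlap.

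Of the lower members, DITNO5_G11 read -0.39, -1.06 and 0.081 in Giant Laf, and 1.60, 1.45 and 0.82 in La France. Every La France value was higher than every Giant Laf value, and the log2 difference was -1.75 ± 0.34 (SE), a 3.35-fold lower mean in Giant Laf (limma, adjusted p = 0.26). DITNO2_B06R2007a read -6.94, -6.79 and -6.37, and -5.89, -6.02 and -5.66. The cultivars did not overlap and the log2 difference was -0.84 ± 0.18 (SE; limma, adjusted p = 0.26), and it was -0.27 with normexp. Its plain partner DITNO2_B06 gave -0.82 ± 0.46 (SE) with overlapping values.

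The probe of widest spread over the arrays, DITNO6_C08, read -4.25, -0.12 and -2.96 in Giant Laf, and 0.16, -0.10 and -1.82 in La France. Giant Laf replicate 2 lay among the La France values and Giant Laf replicate 1 was far below all others. Its SD over the 6 arrays was 1.81, and the log2 difference of -1.86 ± 1.09 (SE) did not pass the adjusted threshold (limma, adjusted p = 0.43). It was -0.95 without Giant Laf replicate 1 and -3.02 without Giant Laf replicate 2, where the limma adjusted p was 0.51.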

How the data were processed

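Each of the 6 arrays, 3 per cultivar, was a 1-colour Agilent array. Per the file headers, the deposited scanner files come from version 10.7.1.1 of Agilent Feature Extraction and hold intensities (the processed signal, already background-subtracted, and median spot and background signals) with flags per spot for outliers, saturation and signal well above background. The authors also deposited a log2 table of the same arrays, with 1 value per probe, whose making the labels do not state; it was an alternative.

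Both spots of a DITNO probe were averaged on the log2 scale of the processed signal, without outlier-flagged spots, and each array's 75th percentile was subtracted. Probes were kept as detected by the rule in the opening. Giant Laf and La France were compared in limma 3.58.1 (lmFit, then eBayes; R 4.3.3), two-sided, with Benjamini-Hochberg adjustment over all detected probes and a threshold of 0.05. The fit was also run on simulated probes that vary independently, unlike the DITNO members here, so nothing is read from that run. An exact permutation test of 3 against 3 arrays cannot go below p = 0.1. The number of arrays limits the precision.

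The DITNO members, the rules and the alternatives were chosen with earlier results of these data known. The rule for named probes took the 2 higher and the 2 lower of smallest p, the 2 brightest, the 2 of widest SD over the arrays, the one nearest the median signal, and the pairs of widest and narrowest gap between log2 differences. Alternatives were median centring, quantile and cyclic loess normalization, normexp with an offset of 50, the deposited table, other detection filters, averaged stems, array weights, the replicate and the slide as blocks, and each array left out. No DITNO sequences were used here.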

Additional observations from a re-analysis of the deposited data

How the results depend on the processing

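No member passed an adjusted p of 0.05 in any of the 18 alternatives run with limma, and the smallest adjusted p of a member there was 0.081, without La France replicate 3. The count at an unadjusted p below 0.05, 23 members, became 41 with median centring (19.5%, against 16.5% of all probes in the same fit), 12 with normexp (5.71%, against 11.5%), 47 of 1166 with no filter on dim probes (4.03%, against 10.8%), 41 without both replicate 3 arrays (19.5%, against 25.2%) and 46 with array weights (21.9%, against 26.2%). Leaving out 1 array each gave 14 (without Giant Laf replicate 2; 6.67%, against 9.50%) to 42 (without Giant Laf replicate 3; 20%, against 19.1%). The deviations of same-numbered arrays had correlations of 0.015, 0.19 and 0.13 over all detected probes. The closest array of the other cultivar bore the same number for 3 of 6 arrays. Over the DITNO members these correlations were -0.0050, -0.42 and -0.049, and the closest array bore the same number for 0 of 6. Whether replicate numbers pair the arrays is not settled by these values. With the replicate number as a block, 16 members (7.62%, against 14.7%) had an unadjusted p below 0.05 and 0 passed the adjusted one. The gap in median difference of -0.19 was -0.088 with quantile normalization, -0.14 with cyclic loess, -0.48 with the slide as a block and within slide 1, and 0.11 in the third of the 5 signal classes. Both slide settings rest on the same contrast, Giant Laf against La France replicate 1 alone. The gap in median signal of -1.01 was -6.20 with no filter and -0.46 for probes detected on all 6 arrays. Signs flipped to 0.043 for DITNO9_D12 with quantile normalization and to 0.037 for DITNO10_B09R2007a without Giant Laf replicate 1 (range with 1 array left out -1.34 to 0.037), with the slide as a block and within slide 1. They flipped for DITNO4_D03 to 0.0074 (quantile), 0.0062 (cyclic loess), 0.0083 (normexp) and as far as 0.043 with 1 array left out (range from -0.085). DITNO4_D03S2007a gave 0.0062 under quantile and 0.0051 under cyclic loess normalization, and -0.099 to 0.029 with 1 array left out. The causes were not tested. The values without scaling and the co-variation with arrays or members left out were added after the data were seen. The low signal of most DITNO probes limits what their differences can show.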
